A study of Mus musculus with 23 samples.

Results

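The RNAs described here are 6 long noncoding RNA genes of the mouse, Malat1, Neat1, Miat, Pvt1, Mir17hg and Rmst, chosen by name, out of 13608 genes that held at least 1 CTCF cross-link site on their own strand in any list. Their sites were all those that lay on the strand of the gene inside its annotated body, 508 of the 1346716 sites in the 6 lists together. Malat1, Neat1, Mir17hg and Pvt1 held 503 of these, Miat held 5 and Rmst held none. The RNA level of the 6 genes was not measured by these lists, so whether they were abundant in these cells cannot be read from them, and a low number of sites does not tell little binding from little RNA or from fewer cells that make it.

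The study asked whether cell-specific chromatin loops need the RNA contacts that the architectural protein CTCF makes through its first zinc finger. It also asked how loss of this finger changes gene expression and which RNAs CTCF contacts in each cell type. Only data on the last question are used here. RNA was profiled by iCLIP2, in which UV light links a protein to the RNA it touches, the protein is precipitated, and reverse transcription stops at the linked nucleotide. A site is the nucleotide just before the start of the reads. All cells were E14 mouse embryonic stem cells (ESCs), or neural progenitor cells (NPCs) after 2 days of differentiation, in which endogenous CTCF carried an mAID-eGFP tag and OsTIR1(F74G) was expressed from Rosa26. In every group, 1 µM 5-Ph-IAA was added to degrade endogenous CTCF and 1 µg/mL doxycycline to induce a Flag-Halo-tagged rescue CTCF from Tigre, both for 24 hours. The rescue was wild type (WT) or lacked a stretch of zinc finger 1 (ΔZF1), and each rescue line was 1 clone. The cross-linked groups received 400 mJ/cm2 of UV at 254 nm. The controls that were not cross-linked (noXL) came only from the WT rescue line, so ΔZF1 has no control of its own. Each group had 4 libraries, except WT in NPCs, which had 3.

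The libraries of a group had been merged before sites were called, so there is 1 list per group, no replicate error and no test between groups. The lists held from 107227 sites (NPC noXL) to 451137 (ESC WT), and a list grows with sequencing depth, which is unknown here. Ranges in parentheses are 95% intervals (exact Poisson for counts, Wilson for shares, from the Wilson share for ratios, Newcombe for differences of shares) and cover counting error only. The score of a site is the one given by the site caller, has no fixed unit and is not scaled between lists. Of 5 stem cell markers, all had at least 66 sites in ESC WT and at most 14 in NPC WT. Among 5 markers of neural cells, the WT lists had 28 Nes sites in NPCs and 2 in ESCs, while Sox1, Pax6, Hes5 and Zic1 had none in NPC WT.

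Long noncoding RNAs are transcribed like messenger RNAs but are not translated, and several of them stay in the nucleus. Malat1 is an unspliced RNA of nuclear speckles, where splicing factors collect. Neat1 is the scaffold of paraspeckles and is made as a short and a long transcript from the same start, of which the long form builds the paraspeckle. Mir17hg is the primary transcript of the miR-17-92 cluster, whose hairpins the nuclease Drosha cuts out at their base. Pvt1 is a long spliced RNA next to Myc, and Miat and Rmst are noncoding RNAs known mainly from the nervous system.

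In mm10, Malat1 was transcribed from the minus strand of chromosome 19, at 5795690 to 5802672, in 1 exon block of 6983 nt, and Neat1 on the same chromosome and strand, at 5824708 to 5845478, in 1 exon block of 20771 nt. Mir17hg, with 2 exons, lay on the plus strand of chromosome 14, at 115042879 to 115046727. Pvt1 spanned 340111 nt of the plus strand of chromosome 15, at 62037986 to 62378096, of which 6996 nt were exonic. Both on minus strands, Miat lay on chromosome 5 at 112213228 to 112229395 and Rmst on chromosome 10 at 92071037 to 92165170. On the opposite strand of the 6 genes there were 2 sites in all lists together, 1 on Malat1 in ESC noXL and 1 on Pvt1 in NPC ΔZF1, so the sites followed the strand of the genes.

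The nucleotides on which the Malat1 results turn are shown first. The first group is the 7 nucleotides with a site in a noXL list, of which 6 are shown because the seventh is next to position 2677. Positions are counted from 1 at the first nucleotide of the gene, 15 nt are given on each side in the sense of the RNA, from the RefSeq genome GRCm38.p6, and the capital letter is the nucleotide called.
Malat1 position 2359, chr19:5800299-5800329, minus strand: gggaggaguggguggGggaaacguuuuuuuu
Malat1 position 2677, chr19:5799981-5800011, minus strand: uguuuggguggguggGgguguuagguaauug
Malat1 position 3296, chr19:5799362-5799392, minus strand: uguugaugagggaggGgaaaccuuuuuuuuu
Malat1 position 4918, chr19:5797740-5797770, minus strand: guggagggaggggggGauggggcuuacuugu
Malat1 position 4923, chr19:5797735-5797765, minus strand: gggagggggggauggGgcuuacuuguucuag
Malat1 position 5375, chr19:5797283-5797313, minus strand: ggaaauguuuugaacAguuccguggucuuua
The second group is nucleotides that both WT lists called and neither noXL list did, of which the first nucleotide of the gene and 2 uridines with high scores, chosen after their values were seen, are shown.
Malat1 position 1, chr19:5802657-5802687, minus strand: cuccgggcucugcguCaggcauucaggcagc
Malat1 position 5816, chr19:5796842-5796872, minus strand: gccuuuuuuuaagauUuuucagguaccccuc
Malat1 position 6433, chr19:5796225-5796255, minus strand: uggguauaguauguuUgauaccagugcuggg
In the first group 6 of the 7 nucleotides were guanosines, and each of those 6 had at least 3 guanosines among the 5 nucleotides before it. The 2 uridines shown from the second group each had 1 guanosine in those 5 nucleotides.

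Malat1, the speckle RNA, had the same number of sites in both WT lists before scaling and few with ΔZF1. In ESCs it had 41 sites with WT (29.4 to 55.6), 8 with ΔZF1 (3.45 to 15.8) and 7 without UV (2.81 to 14.4). In NPCs it had 41 with WT (29.4 to 55.6), 5 with ΔZF1 (1.62 to 11.7) and 5 without UV (1.62 to 11.7). In both cell types the intervals of WT lay above those of ΔZF1 and noXL, and those of ΔZF1 and noXL overlapped. Scaled to the sites in genes of each list, ΔZF1 over WT had a log2 ratio of -1.24 (-2.45 to -0.31) in ESCs and -2.22 (-3.74 to -1.15) in NPCs. The ratio of WT to noXL was 0.88 (-0.09 to 2.17) in ESCs, an interval that includes 0, and 1.63 (0.57 to 3.16) in NPCs. For NPC WT over ESC WT the scaled ratio was 0.90 (0.28 to 1.52). With 15 and 10 sites in both lists together, ΔZF1 and noXL fell under the 20 sites set as the minimum for a ratio.

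**Figure D1:**
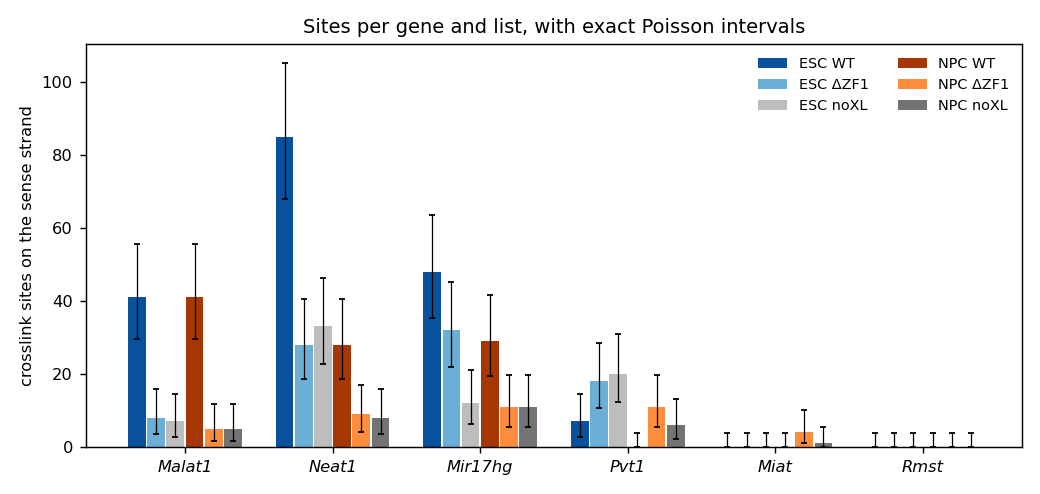
Cross-link sites on the sense strand of each gene (vertical axis, number of sites) in the 6 lists (bar colours), with exact Poisson intervals as error bars. Malat1 has 41 sites in each WT list and 5 to 8 in the others, while on Pvt1 the ESC noXL bar (20) is higher than the ESC WT bar (7).

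The Malat1 sites that ESC ΔZF1 kept were for the most part those found without UV, while in NPC ΔZF1 fewer of the 5 were. Every one of the 7 noXL nucleotides was also called in both WT lists, and 7 of the 8 ESC ΔZF1 sites lay on them. The eighth was position 1, the first nucleotide of the annotated RNA, which was called in all 4 UV lists and in neither noXL list. Of the 5 NPC ΔZF1 sites, 2 lay on noXL nucleotides and 1 on position 1. The other 2 were uridines at positions 2381 and 6890, which NPC WT also held. Positions 2677 and 4923 were called in all 6 lists.

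Away from the noXL nucleotides, Malat1 kept 34 sites in each WT list, 1 in ESC ΔZF1 and 3 in NPC ΔZF1. If scaled by the sites in genes, 34 WT sites would correspond to 17.3 sites in a list as long as ESC ΔZF1 and to 22.6 in one as long as NPC ΔZF1. The division into noXL and other nucleotides was made after the sites were seen, and these numbers are a description.

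The base under the site followed the same division. None of the 7 noXL nucleotides was a uridine (6 guanosines and 1 adenosine), whereas 27 of the 34 other sites were uridines in ESC WT and again 27 of 34 in NPC WT (79.4%, 63.2 to 89.7, in each). Over all its sites, Malat1 had uridine at 65.9% (50.5 to 78.4) in both WT lists, at 0 of 8 ESC ΔZF1 sites and at 2 of 5 NPC ΔZF1 sites. Uridine makes up 28.9% of the Malat1 sequence. The difference between ESC ΔZF1 and ESC WT was -65.9 percentage points (-78.4 to -30.0), and that between NPC ΔZF1 and NPC WT, on 5 sites, was -25.9 (-56.8 to 14.1).

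**Figure D2:**
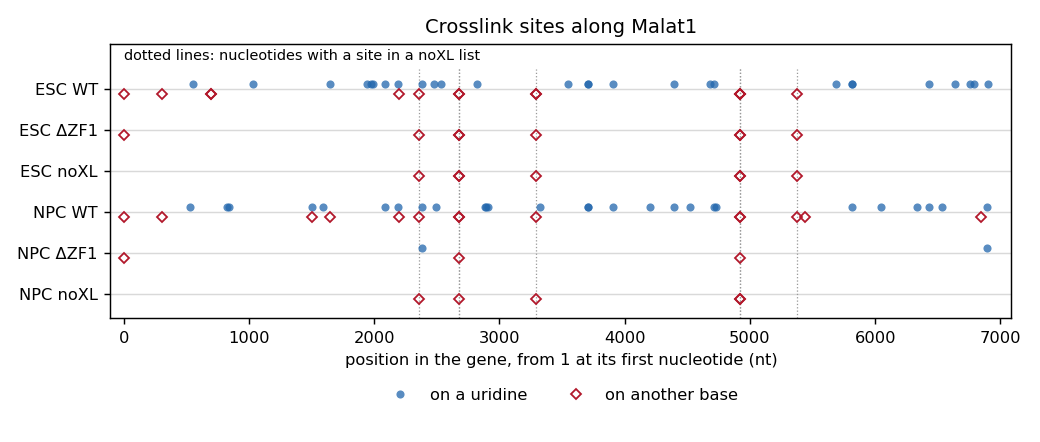
Malat1 sites by position (horizontal axis, nt from 1 at the first nucleotide) in the 6 lists (rows), as filled circles on uridines and open diamonds on other bases. The WT rows carry uridine sites along the whole RNA. Dotted lines mark the nucleotides called without UV, so every site of the noXL rows lies on one. The ESC ΔZF1 row holds these nucleotides and position 1, and the NPC ΔZF1 row holds 2 of them, position 1 and 2 uridines.

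Malat1 sites also scored far above most sites of their lists. The median score was 43.7 in ESC WT and 158 in NPC WT, at the 98.5th and 99.7th percentile of their lists. On the noXL nucleotides the median was 434 for ESC WT and 398 for NPC WT, and on the other nucleotides 38.0 and 78.7. The noXL lists themselves scored these nucleotides at medians of 332 (ESC) and 530 (NPC), so a high score was not particular to UV. The highest-scoring site of NPC WT on Malat1, the uridine at 6433, was at the ceiling of the score, 708, and scored 105 in ESC WT.

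Both WT lists covered Malat1 from end to end. Sites lay in 14 of the 14 windows of 500 nt in ESC WT and in 13 in NPC WT, against 4 to 6 in the other lists. Those lists held only 5 to 8 Malat1 sites and could fill no more windows than that. The window from 2001 to 2500 held the most sites in both WT lists, 6 each. Of the 41 ESC WT sites, 24 (58.5%, 43.4 to 72.2) had an NPC WT site within 5 nt, against 3.05% when positions were shifted by 500 and 1000 nt. At the very same nucleotide, the WT lists shared 17 positions. Of these, 10 were absent from noXL, and 7 of the 10 were uridines.

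Neat1 held the most sites of the 6 genes in ESC WT, and it differed between cell types in where the sites lay. In ESCs it had 85 sites with WT (67.9 to 105), 28 with ΔZF1 (18.6 to 40.5) and 33 without UV (22.7 to 46.3). In NPCs it had 28 with WT (18.6 to 40.5), 9 with ΔZF1 (4.12 to 17.1) and 8 without UV (3.45 to 15.8). In each cell type the WT count lay above the other counts without overlap of their intervals. Scaled to the sites in genes, the log2 ratio of WT to noXL was -0.17 (-0.72 to 0.43) in ESCs and 0.51 (-0.47 to 1.74) in NPCs, and both intervals include 0. The ratio of ΔZF1 to WT was -0.59 (-1.24 to -0.01) in ESCs and -0.95 (-2.11 to 0.01) in NPCs.

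The short transcript ends at position 3172, so the first 15.3% of the gene holds all of it, and the rest of the gene lies past its end. The annotated short form is spliced, and its intron, positions 555 to 720, held 6 ESC WT, 1 ESC ΔZF1 and 2 NPC WT sites and no other. In NPC WT, 26 of 28 sites (92.9%, 77.4 to 98.0) lay in this first part, and the last site was at position 3654. In ESC WT, 34 of 85 (40.0%, 30.2 to 50.6) lay there, and sites went on to position 18526. The difference was 52.9 percentage points (34.1 to 63.9). The lists made without UV differed in the same way, with 7 of 8 sites in the first part in NPCs and 6 of 33 in ESCs, a difference of 69.3 points (31.1 to 83.3). The difference was therefore present without cross-linking too. For ΔZF1 the shares were 5 of 9 in NPCs and 10 of 28 in ESCs, with a difference of 19.8 points (-14.4 to 49.5). Most ESC WT sites past position 3172 scored under 3.02, the median of all lists, while most in the first part scored above it. Both NPC WT sites past position 3172 also scored under 3.02. The size of the difference between the WT lists therefore rests in part on low-scoring sites.

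Per length, ESC WT had 10.7 sites per kb in the first part and 2.90 beyond it, and NPC WT had 8.20 and 0.114. The density of ESC noXL was 1.89 sites per kb in the first part and 1.53 beyond, and that of NPC noXL was 2.21 and 0.0568. Within ESCs the share of sites in the first part was 21.8 points higher in WT than in noXL (2.90 to 36.1). In NPCs it was 5.36 points higher in WT than in noXL (-13.2 to 40.3) and 37.3 points lower in ΔZF1 than in WT (-66.6 to -7.40), the latter on 9 ΔZF1 sites. The annotated long form covers the first part as well, so sites in the exons of the short form cannot be assigned to one of them.

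**Figure D3:**
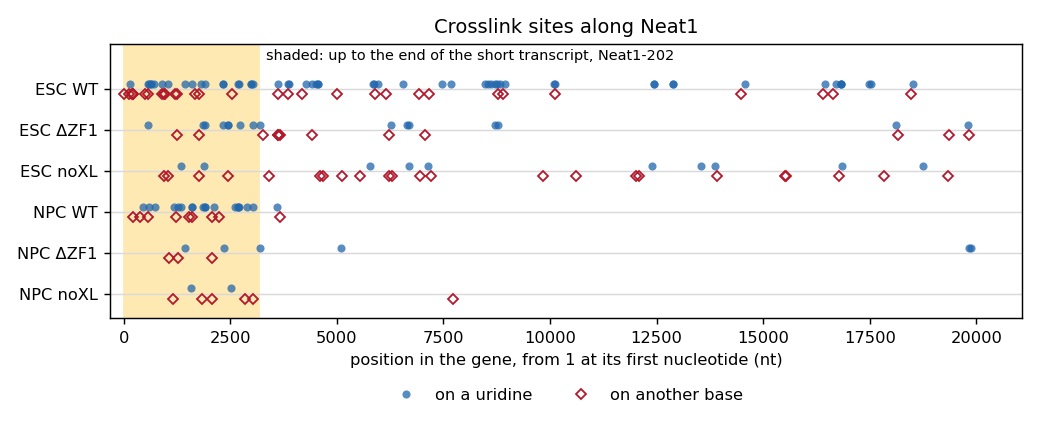
Neat1 sites by position (horizontal axis, nt from 1 at the first nucleotide) in the 6 lists (rows), as filled circles on uridines and open diamonds on other bases. The shaded part ends with the short transcript at 3172 nt. NPC WT sites stop shortly after it, at 3654 nt, and ESC WT sites run to 18526 nt, most of those past 3172 nt with scores under 3.02.

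On Neat1 the UV lists lay mostly on uridines, and ESC noXL lay mostly on adenosines. In ESCs uridine was under 64.7% of the WT sites (54.1 to 74.0), 57.1% of the ΔZF1 sites (39.1 to 73.5) and 30.3% of those without UV (17.4 to 47.3), beside 30.0% of the gene's sequence. In NPCs it was under 67.9% (49.3 to 82.1), 6 of 9 and 2 of 8. In ESC noXL, 18 of the 33 sites were adenosines. The difference between ESC WT and ESC noXL was 34.4 points (14.3 to 50.3), and ΔZF1 differed from WT by -7.56 points (-27.9 to 11.9).

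Unlike those of Malat1, the Neat1 sites without UV were rarely the same nucleotides as those with it. Of 41 nucleotides in a noXL list, 2 were also in a UV list, both adenosines. Of the 85 ESC WT sites, 1 lay within 5 nt of an ESC noXL site (1.18%, against 2.35% after shifts), and 11 lay near an ESC ΔZF1 site (12.9%, against 0.588%). The WT lists shared 6 nucleotides, all within the first 3172 nt and none in noXL. The highest-scoring Neat1 sites of the UV lists, the uridine at 2982 in ESC WT (29.2), the uridine at 8698 in ESC ΔZF1 (13.3), the adenosine at 375 in NPC WT (17.7) and the guanosine at 2074 in NPC ΔZF1 (34.3), were each called in 1 list. Median scores ran from 1.85 (ESC ΔZF1, the 38.5th percentile of its list) to 9.81 (NPC ΔZF1, the 80.4th).

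Mir17hg carried sites along nearly its whole length, and some of them recurred at the ends of the miRNA arms. These arms are shown because the recurring nucleotides sit at their 3′ ends. Sequences are the mature arms of RefSeq, with the seed, bases 2 to 8, in capitals.
mmu-miR-17-3p, chr14:115043721-115043742: aCUGCAGUgagggcacuuguag
mmu-miR-20a-3p, chr14:115044219-115044240: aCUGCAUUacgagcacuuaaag
mmu-miR-19a-3p, chr14:115044048-115044070: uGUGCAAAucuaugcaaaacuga
mmu-miR-19b-3p, chr14:115044358-115044380: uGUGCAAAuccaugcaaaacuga
mmu-miR-92a-3p, chr14:115044476-115044496: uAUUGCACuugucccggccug
miR-19a-3p and miR-19b-3p share their seed, and the other 3 arms have seeds of their own. The recurring sites are shown on the primary transcript, with the nucleotide called in capitals.
Mir17hg position 865, 1 nt after miR-17-3p, chr14:115043728-115043758, plus strand: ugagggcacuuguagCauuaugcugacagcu
Mir17hg position 1363, 1 nt after miR-20a-3p, chr14:115044226-115044256, plus strand: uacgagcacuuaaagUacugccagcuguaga
Mir17hg position 1502, last base of miR-19b-3p, chr14:115044365-115044395, plus strand: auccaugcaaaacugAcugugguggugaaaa

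With the main settings, the number of Mir17hg sites stayed within the limits used for all genes in each comparison. ESCs gave 48 sites with WT (35.4 to 63.6), 32 with ΔZF1 (21.9 to 45.2) and 12 without UV (6.20 to 20.96). NPCs gave 29 with WT (19.4 to 41.6) and 11 each with ΔZF1 and without UV (5.49 to 19.7). Per length it had the most sites of the 6 genes in every list, the noXL lists included. It had 12.5 sites per kb in ESC WT, beside 5.87 for Malat1 and 4.09 for Neat1, and 3.12 in ESC noXL, beside 1.00 and 1.59. In NPC noXL it had 2.86, beside 0.716 and 0.385. The scaled log2 ratio of WT to noXL was 0.41 (-0.41 to 1.39) in ESCs and 0.15 (-0.76 to 1.21) in NPCs. That of ΔZF1 to WT was 0.41 (-0.25 to 1.03) in ESCs and -0.73 (-1.79 to 0.17) in NPCs. All 4 intervals include 0.

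Position 865, the nucleotide after miR-17-3p, was called in 5 of the 6 lists, both noXL lists among them, with scores in ESCs of 20.8 with WT, 20.0 with ΔZF1 and 26.7 without UV, and in NPCs of 13.1 with WT and 8.09 without UV. NPC ΔZF1 alone lacked it. Position 1363, the nucleotide after miR-20a-3p, was in ESC WT (25.4), ESC ΔZF1 (19.8), NPC WT (33.3) and NPC noXL (18.4). The last base of miR-19b-3p was called in ESC WT (4.19), ESC ΔZF1 (18.1) and NPC WT (17.0), and that of miR-92a-3p in ESC WT (16.9), NPC WT (18.8) and NPC noXL (14.2). The last base of miR-19a-3p was called in ESC WT (7.01) and NPC noXL (8.99). The highest-scoring Mir17hg sites of ESC WT and NPC ΔZF1 lay elsewhere, on the adenosine at 1648 (25.7) and the cytidine at 19 (7.15), and each was called in 1 list. Since reads start 1 nt after a site, reads behind the last base of an arm begin with the first nucleotide past it.

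In all, 5 of the 6 3p arms in the cluster had a site on their last base or the nucleotide after it, and none of the 5 annotated 5p arms did. These 12 nucleotides at the 3p ends make up 0.312% of the gene and held 20 of its 143 sites over the lists, namely 6, 5 and 1 in ESCs with WT, with ΔZF1 and without UV, and 4, 0 and 4 in NPCs. They were chosen after the sites had been seen. Their median score was above that of the other Mir17hg sites in each list that had any, at 11.9 beside 2.35 in ESC WT and 17.9 beside 5.06 in NPC WT. Also 1 site lay on the nucleotide before miR-20a-5p, in ESC WT.

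**Figure D4:**
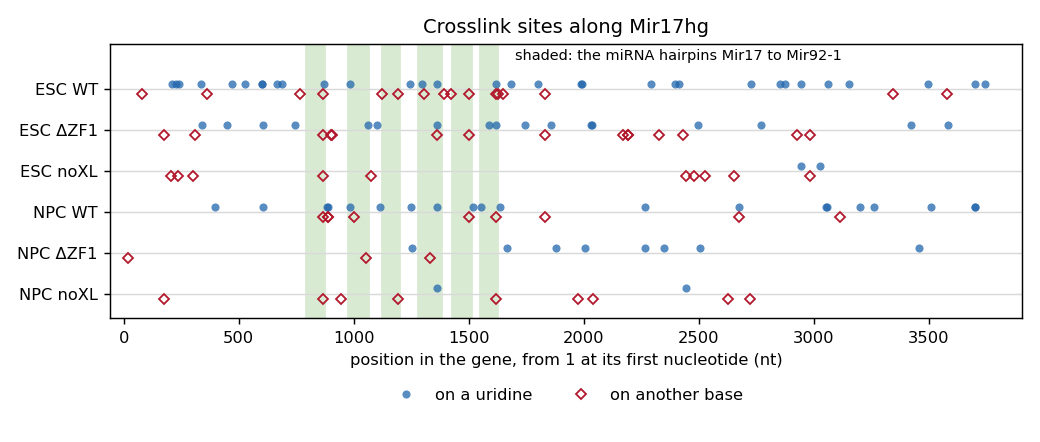
Mir17hg sites by position (horizontal axis, nt from 1 at the first nucleotide) in the 6 lists (rows), as filled circles on uridines and open diamonds on other bases. Shaded bands are the 6 hairpins. The diamond at 865 nt, near the end of the first band, stands in 5 rows, and UV sites on uridines lie before, between and after the bands.

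The stretch from the first to the last hairpin, positions 793 to 1628, is 21.7% of the gene and held 15 of the 48 ESC WT sites (31.2%, 19.9 to 45.3) and 14 of the 29 NPC WT sites (48.3%, 31.4 to 65.6). Most ESC WT sites therefore lay outside the hairpin cluster, 13 before it and 20 after. The intron, positions 80 to 392, held 5 ESC sites with WT, 3 with ΔZF1 and 3 without UV, and in NPCs 1 site, without UV. In ESCs uridine was under 66.7% of the WT sites (52.5 to 78.3), 53.1% of the ΔZF1 sites (36.4 to 69.1) and 16.7% of the sites without UV (4.70 to 44.8), beside 33.9% of the sequence. For NPCs it was under 69.0% with WT (50.8 to 82.7), 72.7% with ΔZF1 (43.4 to 90.3) and 18.2% without UV (5.14 to 47.7). In both cell types the UV lists thus lay above the share in the sequence with their whole interval, while the noXL intervals included it.

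Pvt1, the RNA next to Myc, had fewer sites in WT than in the other lists of the same cell type. In ESCs it had 7 sites with WT (2.81 to 14.4), 18 with ΔZF1 (10.7 to 28.4) and 20 without UV (12.2 to 30.9). In NPCs it had none with WT, 11 with ΔZF1 (5.49 to 19.7) and 6 without UV (2.20 to 13.1). The scaled log2 ratio of WT to noXL in ESCs was -2.90 (-4.23 to -1.82), with 0.161% of the genes compared lower, and that of ΔZF1 to WT was 2.23 (1.12 to 3.56). The intervals of the ESC counts overlapped between WT and the other lists before scaling. The count of 0 in NPC WT allows up to 3 sites, or 1.30 per 100000 sites in genes, and against this floor Pvt1 was at least 5.51-fold higher per site in genes in NPC ΔZF1 and at least 4.51-fold higher in NPC noXL, taking the 11 and 6 sites as exact. With the counting error of both lists, the interval of the scaled log2 ratio began at 2.10 for ΔZF1 over WT and ended at -1.82 for WT over noXL. These ends correspond to smaller folds than those given. Both NPC comparisons, with 11 and 6 sites in both lists together, fell under the 20 sites set as the minimum for a ratio.

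The Pvt1 sites of the lists also lay in different places. The 7 ESC WT sites were within the first 1314 nt and 6 of them were exonic. In ESC ΔZF1, 13 of 18 sites were intronic and the last was at position 128447, and in ESC noXL 14 of 20 were intronic and the last was at 137497. In NPCs 9 of 11 ΔZF1 sites and 4 of 6 noXL sites were intronic. Only 2 nucleotides were called in more than 1 list, a cytidine at position 15 in ESC WT and ESC noXL and a cytidine at position 33 in ESC WT and ESC ΔZF1. Uridine was under 2 of 7 ESC WT sites, 9 of 18 in ESC ΔZF1 and 10 of 20 in ESC noXL, with intervals that overlap.

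**Figure D5:**
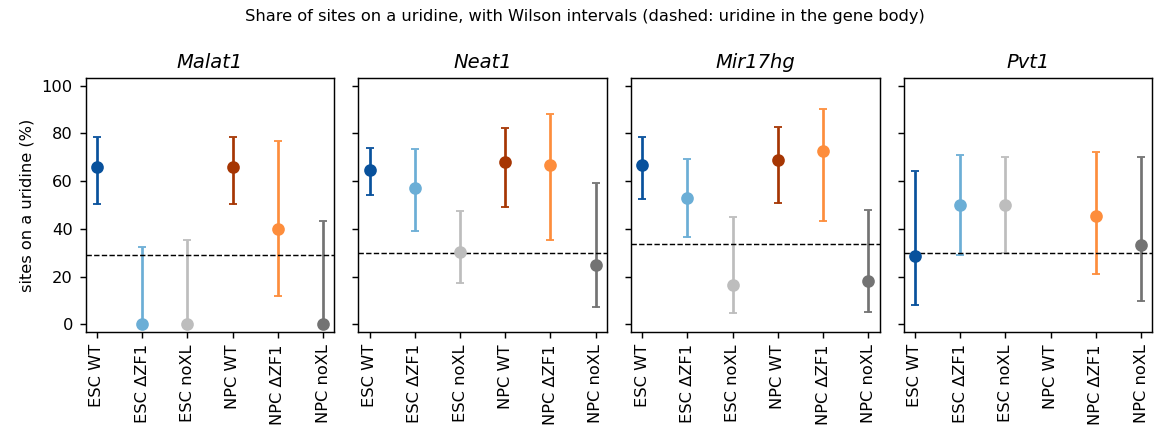
Share of sites on a uridine (vertical axis, percent) in each list with at least 5 sites, for the 4 genes with most sites (panels), with Wilson intervals as error bars and the uridine share of the gene body as a dashed line. On Malat1, Neat1 and Mir17hg the WT points lie above the dashed line with their whole interval, and on Pvt1 the list intervals overlap.

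Miat and Rmst had next to no sites. Miat held 4 sites in NPC ΔZF1 (1.09 to 10.2) and 1 in NPC noXL (0.0253 to 5.57), all exonic, and none in the other lists. The 4 lay at positions 8057, 8070, 16021 and 16104. Rmst, which spans 94134 nt, held none in any list. A count of 0 allows up to 3 sites, which is 0.699 per 100000 sites in genes in ESC WT and 2.94 in NPC noXL, and whether the RNAs were made in these cells was not tested.

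The 6 genes were then set against all genes for which the lists compared held 20 sites or more in sum, counting as higher a scaled log2 ratio of at least 1 and as lower a ratio of at most -1. From ESC noXL to ESC WT, 4 members could be compared and none was higher (8.12% of the 6208 genes were) and 1, Pvt1, was lower (6.6% of genes). From NPC noXL to NPC WT, 1 of 3, Malat1, was higher (10.5% of genes) and none lower (6.51%). For ΔZF1 against noXL, none of 3 in ESCs was higher (7.86%) or lower (6.56%), and the 1 compared in NPCs, Mir17hg, was neither (7.19% and 8.03%). For ΔZF1 against WT, 1 of 4 was higher in ESCs, Pvt1 (6.84% of genes), and 1 lower, Malat1 (5.45%). In NPCs none of 3 was higher (5.76%) and 1, Malat1, was lower (7.36%). In NPCs, 0.796% of the genes compared had a lower ratio of ΔZF1 to WT than Malat1, and in ESCs 3.34% did.

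Between cell types, none of 3 members was higher (11.5%) or lower (10.4%) in NPC WT than in ESC WT. The scaled log2 ratio was 0.90 (0.28 to 1.52) for Malat1, -0.67 (-1.31 to -0.09) for Neat1 and 0.19 (-0.49 to 0.83) for Mir17hg. For ΔZF1 none of 3 was higher in NPCs (10.9%) and 1, Neat1 at -1.03 (-2.19 to -0.07), was lower (14.1%). For noXL none of 3 was higher (11.1%) and 2 were lower (12.3%), Neat1 at -1.35 (-2.57 to -0.39) and Pvt1 at -1.02 (-2.45 to 0.10). Neat1 thus had a ratio below 0 in each kind of list, the one made without UV included. Its ΔZF1 value was close to the limit and not past it when scaled to all sites (-0.99), by the median ratio over genes (-0.94) or with exon sites alone (-0.86), and it was not compared when sites scoring under 3.02, the median of all lists, were left out. With those sites left out the WT value was 0.17, so its direction depends on the low-scoring sites.

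Of 22 other noncoding RNAs listed for comparison, 19 were found in the annotation under that name and 12 had enough sites in ESCs to compare ΔZF1 with WT. Of these 12, 1 was higher with ΔZF1 and none lower, with a median scaled log2 ratio of 0.48, where Malat1 had -1.24. In NPCs none of 11 was higher and 1, the imprinted RNA H19 with 28 WT sites and no ΔZF1 site, was lower, with a median of 0.09, where Malat1 had -2.22.

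Over the 6 genes together, uridine was in ESCs under 64.1% of the sites with WT (56.9 to 70.7), 48.8% with ΔZF1 (38.6 to 59.2) and 30.6% without UV (21.1 to 42.0). For NPCs it was under 67.3% with WT (57.6 to 75.8), 57.5% with ΔZF1 (42.2 to 71.5) and 22.6% without UV (11.4 to 39.8). The other lincRNA genes had 57.1%, 46.3% and 28.5% in ESCs and 61.9%, 58.1% and 28.7% in NPCs, in the same order. In every list the intervals of the 6 genes and of the other lincRNA genes overlapped.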

How the data were processed

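Sites came from the site lists the authors deposited, 1 for each group of libraries, 23 libraries in all. The authors used Flexbar for demultiplexing and trimming, STAR for alignment to mm10 and UMI-tools to remove PCR duplicates, then merged the libraries of a group and called single nucleotides with PureCLIP. The deposited value is the score PureCLIP gave each site. Duplicate removal makes reads, not sites, independent molecules, and the read depth is unknown.

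All sites on the assembled nuclear chromosomes were assigned to GENCODE M21 genes on the same strand, with 1-based positions. Bases were read from GRCm38, the same build, and T is given as uridine. Log2 ratios used a pseudocount of 1 and the sites in genes of each list as scale. Shared meant within 5 nt, with shifts of 500 and 1000 nt both ways as background. Nucleotides were named if they scored highest in a UV list or stood in most lists. Others, and the miRNA arms, were chosen after their values were seen. Not all of them are printed, and one on Malat1 is not reported here. The 6 genes, the list of other noncoding RNAs and the markers were chosen with earlier results of these data known. The calculations were tested on simulated data. Alternatives changed the score minimum, merging (8 nt), base, exons, scaling, pseudocount (0.5), gene minimum (10), sharing distance and shifts. Python 3.11.15, numpy 2.4.6, pandas 2.3.3, scipy 1.17.1 and matplotlib 3.10.9 were used.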

Additional observations from a re-analysis of the deposited data

How the results depend on the processing

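No paired analysis was possible because the lists hold sites of libraries already pooled, and no library could be left out for the same reason. Of 248 member ratios recomputed under 10 alternatives, 234 stayed within the interval of the reported ratio, 10 of the 14 others came without scaling, and none of the ratios past a limit changed sign. Without scaling the median over all genes shifted by -0.98 to 1.51, so these values follow list length.

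The number of sites on the 6 genes fell most with a base or score restriction. On uridines alone there were 116 with WT, 42 with ΔZF1 and 22 without UV in ESCs, and 23 with ΔZF1 and 7 without UV in NPCs. With scores of at least 3.02, the median of all lists, ESCs kept 94 with WT and 33 with ΔZF1, and NPCs 26 with ΔZF1.

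Counts of members past the limits moved as follows, with the cause not tested and the share of all genes compared in parentheses where scaling was left out. Under the other settings from 3.46% to 16.6% of genes were past a limit in 1 direction. From noXL to WT in ESCs, 3 were higher without scaling (82.8% of genes) and 1 with uridines alone, with the score minimum or with merging, and 0 lower with uridines or exons alone, where Pvt1 fell under the 20 sites. In NPCs 3 were higher without scaling (63.5%). From noXL to ΔZF1 in ESCs, 1 was higher without scaling (25.1%) and 2 lower with the score minimum. From WT to ΔZF1 in ESCs, 0 were higher with uridines, exons or the score minimum and 2 lower without scaling (47.1%). In NPCs 1 was higher with a minimum of 10 sites (Pvt1), 3 were lower without scaling (28.4%) and 2 without chromosome 11 (8.84%), with the score minimum (9.81%) or with merging (6.25%). Between cell types, 1 was lower for WT without scaling (41.9%). For ΔZF1, 0 were lower when scaled to all sites or by the median ratio, with the score minimum or with exons alone, and 2 without scaling (30.0%). For noXL, 1 was lower with the median ratio, exons or merging, and 0 with uridines alone. Malat1, ΔZF1 against WT, lay at -3.53 on uridines alone in ESCs.

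At the same nucleotide, 20.9% of ESC ΔZF1 sites were shared with ESC WT (32.6% within 5 nt) and 29.6% of NPC WT sites with ESC WT (41.8%), the latter 60.2% within 20 nt. With uridines alone the share with WT was 19.05% for ESC ΔZF1, 9.09% for ESC noXL and 14.3% for NPC noXL. The uridine shares over the 6 genes kept within their intervals under every alternative, one of them, without nucleotides found in noXL, chosen after seeing the data.

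The counts of all genes past the limits moved by over 1.5 times in all 9 comparisons without scaling and with a minimum of 10 sites, in 7 with uridines alone and with the score minimum, in 4 with exons alone and in 1 with merging.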
